A study of Mus musculus with 12 samples.

Results

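Genes of cholesterol synthesis and other targets of SREBP2 were followed across 12 mouse expression arrays of primary hepatocytes. The set was a list of 30 gene symbols chosen by function and not by any cutoff on these arrays. Earlier results of these data were known when it was chosen. A symbol counted as measured when the array held a probe set annotated to it alone, which was so for 28 of the 30 among 18193 genes measured in all. Acat2 and Soat2 were not analysed here. Of the 28 measured genes, 18 encode enzymes of the route from acetyl-CoA to cholesterol (19 were listed), 4 encode the proteins that control SREBP2, and 6 handle sterols or are further SREBP2 targets.

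The hepatocytes were cultured for 48 h in a medium that held 2.5% dimethyl sulfoxide (DMSO) and 10 nM dexamethasone in every group, and then received either DMSO vehicle or TCDD (10 nM) during 6 h. The dioxin TCDD activates the aryl hydrocarbon receptor (AHR), a transcription factor. Wild type cells came from C57BL6/J mice. Human AHR cells came from B6.Cg mice that carry the allele Ahrtm3.1Bra and the transgenes Alb-cre and Ttr-AHR (1Ghp), in which Cre under the albumin promoter acts on the Ahr allele in hepatocytes and the human receptor is driven by the transthyretin promoter, so that other liver cells are not targeted by these promoters. Each of the 4 groups (wild type vehicle, wild type TCDD, human AHR vehicle, human AHR TCDD) had 3 arrays, each from a separate mouse per the design text. The comparisons ask whether TCDD moved these genes through the mouse or the human receptor, and whether the genotypes differed.

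Cholesterol is built from acetyl-CoA through mevalonate, the prenyl diphosphates, squalene and lanosterol. The genes of nearly all these steps are switched on by SREBP2, a membrane-bound transcription factor of the endoplasmic reticulum. When sterols are scarce, SCAP carries SREBP2 to the Golgi, where proteases free the active part. When sterols are plentiful, INSIG proteins hold SCAP back. The liver is a main site of this synthesis, and the pathway is known for a coordinated response of its enzymes.

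Signal below means the deposited intensity after every array was brought to the same trimmed mean of 150, and log2 values are of signal plus 16. The array medians lay between 16.5 and 23.5, and precision is limited by how few arrays there were. Tiparp, a direct AHR target, read 911 to 1403 in the 6 vehicle arrays and 2534 to 3609 in the 6 TCDD arrays. Cyp1a1, the classic AHR-induced cytochrome, read 125, 2518 and 64.9 in wild type TCDD replicates 1, 2 and 3, and 4004 to 6939 in human AHR TCDD arrays. With vehicle it read 18.5 to 25.3 in wild type and 60.5 to 81.9 in human AHR arrays. Wild type TCDD replicate 3 thus lay within the human AHR vehicle range, and replicates 1 and 3 lay far below replicate 2. The signal of Ahr itself was 617 with vehicle and 442 with TCDD in wild type replicate 2. It was 223 to 261 in the other wild type arrays and 193 to 236 in human AHR arrays. Wild type TCDD replicate 3 stood apart, with the highest of the 12 signals for 3146 genes and the lowest for 2707, against at most 2143 and 2002 for any other array. Xist, the transcript of the inactive X chromosome in female cells, read 3085 and 2952 in wild type vehicle replicate 2 and wild type TCDD replicate 2 and at most 29.3 elsewhere. The Y chromosome gene Eif2s3y read 4.7 and 0.42 in those arrays and 453 to 765 elsewhere. Summed signals of 9 hepatocyte markers ran from 51719 to 67966, those of 7 stellate cell and fibroblast markers from 100.0 to 225, and those of 5 endothelial markers from 114 to 216. In bulk arrays, fewer cells of a type and less RNA per cell cannot be told apart.

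The most prominent pattern in the pathway was a swing between arrays of the same group, which most of the synthesis enzymes shared. Below, the 3 signals of a group are given for replicates 1, 2 and 3 in that order. Hmgcs1, the synthase that makes HMG-CoA near the entry of the pathway, read 2093, 3681 and 3895 in wild type vehicle arrays and 1926, 3350 and 1180 in wild type TCDD arrays. In human AHR cells it read 2970, 1357 and 2117 with vehicle and 2817, 1306 and 2369 with TCDD. All 4 groups overlapped, and wild type TCDD replicate 3 was the lowest of the 12.

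Idi1, which interconverts the isoprenoid building blocks isopentenyl and dimethylallyl diphosphate, read 794, 1162 and 1482 in wild type vehicle and 773, 1214 and 334 in wild type TCDD arrays. In human AHR arrays it read 1178, 522 and 710.0 with vehicle and 1086, 404 and 670 with TCDD. The order of the arrays was the one seen for Hmgcs1 in every group. Mvk, Pmvk and Mvd catalyse the steps between mevalonate and isopentenyl diphosphate, phosphorylating mevalonate in turn and then decarboxylating it. Mvk ran from 76.9 to 213 over the 12 arrays and Pmvk from 122 to 209, both highest in wild type TCDD replicate 2. Mvd read 104, 113 and 126 in wild type vehicle, 77.5, 115 and 88.2 in wild type TCDD, 114, 41.8 and 49.0 in human AHR vehicle, and 81.2, 67.7 and 72.7 in human AHR TCDD arrays. Its 3 wild type vehicle signals were close together, while human AHR vehicle replicate 1 lay within their range and the other 2 human AHR vehicle arrays lay below all wild type arrays.

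At the prenyl branch point, Fdps makes farnesyl diphosphate, the last precursor shared by sterols and other isoprenoids. Its signals were 1176, 2600 and 2738 in wild type vehicle arrays and 1112, 1971 and 796 in wild type TCDD arrays. In human AHR cells they were 1945, 791 and 1092 with vehicle and 1928, 777 and 1295 with TCDD. Replicates 2 and 3 of wild type vehicle were the highest of the 12, and the remaining arrays of all 4 groups overlapped. Ggps1, which extends farnesyl diphosphate for protein prenylation and other non-sterol uses, varied least within groups of all the enzymes and ran from 122 in wild type TCDD replicate 2 to 185 in human AHR TCDD replicate 1.

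Fdft1 joins farnesyl units into squalene, Sqle oxidises squalene and Lss closes it to lanosterol. Fdft1 read 675, 1270.0 and 1422 in wild type vehicle, 682, 1151 and 414 in wild type TCDD, 1056, 466 and 662 in human AHR vehicle, and 1052, 484 and 785 in human AHR TCDD arrays. These are the array orders of Fdps in each group. Sqle varied less, from 1422 in wild type TCDD replicate 3 to 2053 in wild type vehicle replicate 2, and Lss ran from 219 in human AHR vehicle replicate 2 to 529 in wild type vehicle replicate 2.

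Between lanosterol and cholesterol, Cyp51 removes the 14-alpha-methyl group of lanosterol, Tm7sf2 reduces the resulting double bond, and Msmo1, Nsdhl and Hsd17b7 take off the 4-methyl groups. Cyp51 read 633, 1149 and 1058 in wild type vehicle, 633, 1076 and 358 in wild type TCDD, 830.4, 448 and 598 in human AHR vehicle, and 855, 413 and 764 in human AHR TCDD arrays. Msmo1 read 4027, 4254 and 6045 in wild type vehicle and 3609, 3500 and 3135 in wild type TCDD arrays, and 2616 to 4676 in human AHR arrays. For Msmo1, every wild type TCDD array lay below every wild type vehicle array. Nsdhl ran from 309 to 828 over the 12 arrays, lowest in human AHR vehicle replicate 2 and highest in wild type vehicle replicate 2. Hsd17b7 read 280, 454 and 309 in wild type vehicle and 238, 263 and 274 in human AHR vehicle arrays, which did not overlap. Tm7sf2 had its highest signal, 1098, in wild type TCDD replicate 3, the array in which Hmgcs1, Idi1, Fdft1, Cyp51, Sqle and Dhcr7 were at their lowest.

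Ebp shifts the sterol double bond, and Sc5d and Dhcr7 complete and then reduce the ring on the way to cholesterol. Dhcr7 read 579, 748 and 504 in wild type vehicle, 418, 551 and 209 in wild type TCDD, 848, 384 and 429 in human AHR vehicle, and 541, 378 and 607 in human AHR TCDD arrays. Wild type TCDD replicates 1 and 3 lay below all wild type vehicle arrays, and replicate 2 lay among them. Ebp ran from 1118 to 1662 and Sc5d from 1813 to 2730, and each varied little within groups. Like Tm7sf2, Ebp was highest in wild type TCDD replicate 3.

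Among the 4 control genes, Srebf2, which encodes SREBP2, ran from 76.0 in wild type TCDD replicate 3 to 206 in human AHR vehicle replicate 1. Scap, the escort of SREBP2, read 715, 742 and 626 in wild type vehicle arrays and 831, 835 and 809 in human AHR vehicle arrays, which did not overlap. Insig1, an anchor that is itself an SREBP target, read 398, 415 and 519 in wild type vehicle, 419, 347 and 542 in wild type TCDD, 569, 460 and 347 in human AHR vehicle, and 443, 399 and 292 in human AHR TCDD arrays. Its array order was that of Hmgcs1 in wild type vehicle but not in the other groups. In wild type TCDD it was high in replicate 3, where most enzymes were low. In both human AHR groups replicate 1 was its highest, as for Hmgcs1, but replicate 3 was its lowest. Insig2, the related anchor, stayed between 1538 and 2056.

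Of the sterol handling genes, Npc1 and Npc2 move cholesterol out of lysosomes. Npc1 read 361, 309 and 294 in wild type vehicle, 389, 492 and 379 in wild type TCDD, 353, 428 and 357 in human AHR vehicle, and 363, 491 and 475 in human AHR TCDD arrays. Every wild type TCDD array lay above every wild type vehicle array, and the human AHR groups overlapped. Npc2 ran from 1976 to 2703. Stard4, a cytosolic sterol carrier, read 336, 527 and 368 in wild type vehicle and 327, 276 and 334 in human AHR vehicle arrays, which did not overlap. Acss2, which makes acetyl-CoA from acetate, ran from 273 to 555. Abca1 exports cholesterol to apolipoprotein A-I and is induced by LXR, the oxysterol receptor. It ran from 357 to 927, with the 2 highest signals in wild type replicate 2 of either treatment. Mylip, an LXR-induced ubiquitin ligase for lipoprotein receptors, was dim and read 30.6, 21.8 and 42.4 in wild type vehicle, 43.3, 37.8 and 62.0 in wild type TCDD, 38.2, 47.9 and 69.8 in human AHR vehicle, and 29.9, 34.4 and 58.6 in human AHR TCDD arrays. Its lowest array was wild type vehicle replicate 2, in which Hsd17b7, Stard4 and Nsdhl were at their highest.

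**Figure D1:**
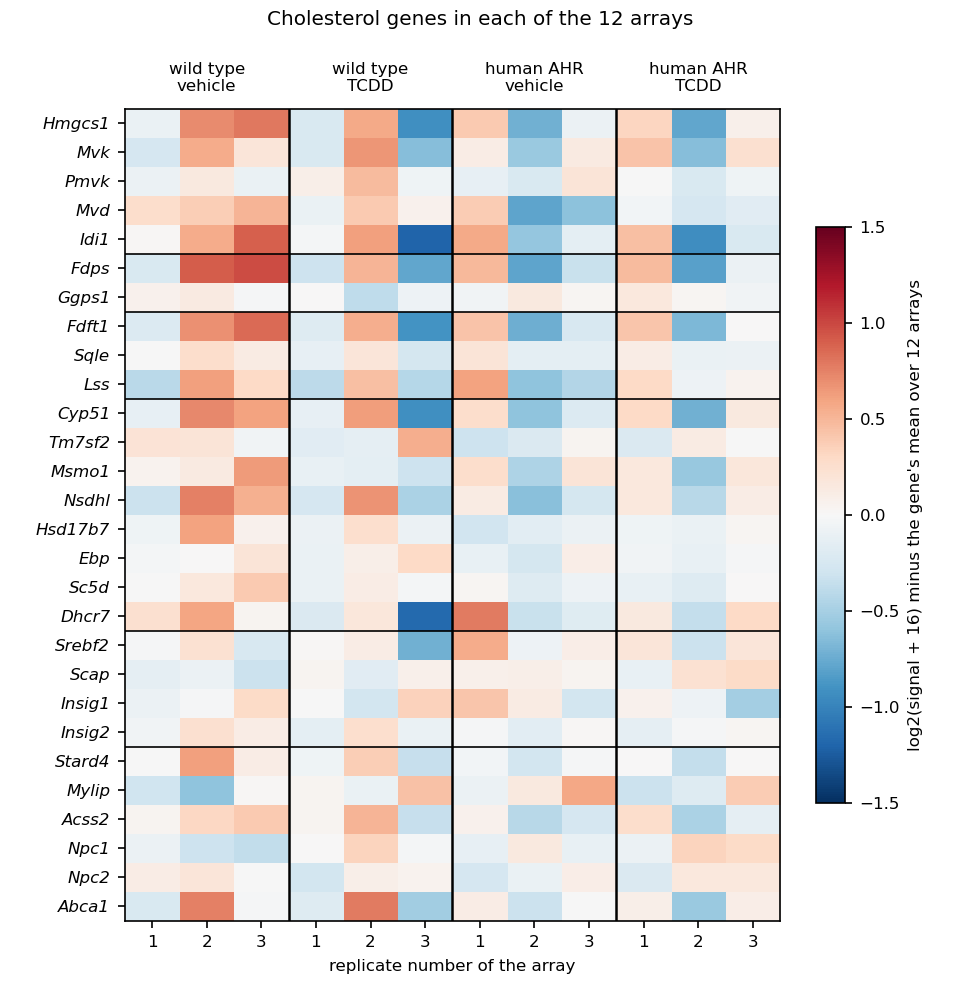
Log2(signal + 16) of each of the 28 genes (rows, in pathway order, with lines between roles) in each of the 12 arrays (columns, by group and replicate number), minus the gene's mean over the 12 arrays. Most enzyme rows share columns of red (wild type vehicle replicates 2 and 3, wild type TCDD replicate 2) and blue (wild type TCDD replicate 3, human AHR replicate 2 under both treatments), while Ggps1, Ebp, Scap and Insig2 are paler.

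**Figure D2:**
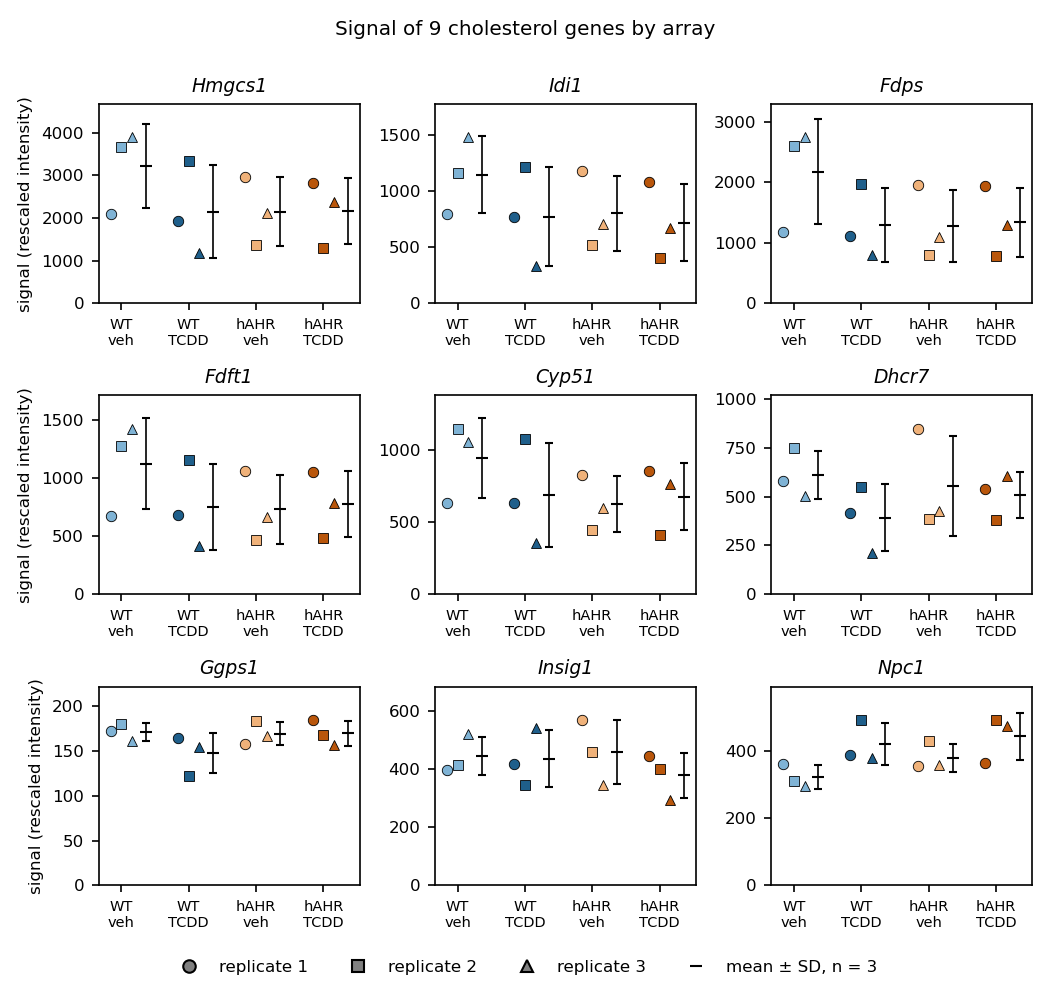
Signal (rescaled intensity, linear axis from 0) of 9 genes in each array by group (WT, wild type; hAHR, human AHR; veh, vehicle), with symbols for replicate numbers and the mean ± SD of 3 arrays beside them. Fdps runs from 777 to 2738 with overlapping groups, while Ggps1 runs from 122 to 185 only, and the wild type TCDD signals of Npc1 lie above those of wild type vehicle.

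The shared swing can be put in numbers. For the 18 synthesis enzymes, the median deviation of an array from each gene's mean over the 12 arrays was -0.05, 0.55 and 0.35 on the log2 scale in wild type vehicle and -0.12, 0.42 and -0.37 in wild type TCDD arrays. It was 0.23, -0.51 and -0.12 in human AHR vehicle and 0.16, -0.31 and 0.01 in human AHR TCDD arrays. The arrays of each group thus overlapped with those of every other group. Over all 18193 genes the same medians stayed between -0.04 and 0.04.

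The 3′ to 5′ signal ratio of Actb, a sign of RNA quality, varied between the same arrays. It was 1.421, 1.427 and 1.332 in wild type vehicle, 1.474, 1.391 and 1.522 in wild type TCDD, 1.39, 1.565 and 1.525 in human AHR vehicle, and 1.501, 1.535 and 1.467 in human AHR TCDD arrays. In 3 of the 4 groups, all but wild type vehicle, the array with the highest ratio was the one with the lowest enzyme median. In wild type TCDD and human AHR vehicle arrays, the order of the ratios was the reverse of that of the enzyme medians throughout. The Gapdh ratio stayed between 0.798 and 0.841. The part of RNA quality in the swing was not tested.

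Within a group, 1 array was usually the lowest for most enzymes. Wild type vehicle replicate 1 was the lowest of its 3 for 14 of 18 enzymes, wild type TCDD replicate 3 for 12, human AHR vehicle replicate 2 for 14 and human AHR TCDD replicate 2 for 16. Over all genes these arrays were the lowest of 3 for 6084, 6753, 6058 and 6485 of 18193. The pooled within-group SD of log2(signal + 16) had a median of 0.42 over the 18 enzymes, 0.32 over the 28 genes, and 0.27 over all genes (0.25 over the brightest 60%). It was widest for Idi1 (0.68), Fdps (0.66), Fdft1 (0.61), Hmgcs1 (0.60) and Cyp51 (0.57), and narrowest for Ggps1 (0.13), Sc5d (0.14) and Scap (0.14). No test was made of these spreads.

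In human AHR cells the order of the numbered arrays was the same with vehicle and with TCDD for 9 of the 18 enzymes (50%) and 13 of the 28 genes (46.4%), beside 26.6% of all genes and 31.8% of the brightest 60%. In wild type cells it was the same for 4 of the 18 enzymes (22.2%) and 7 of the 28 genes (25%), beside 23.2% of all genes and 27.3% of the brightest 60%. In human AHR cells, replicate 2 was lowest and replicate 1 highest under both treatments for Hmgcs1, Mvd, Idi1, Fdps, Fdft1, Lss, Cyp51, Nsdhl and Acss2. The difference of TCDD minus vehicle between same-numbered human AHR arrays had a median over the enzymes of -0.01 for replicate 1, 0.00 for replicate 2 and 0.12 for replicate 3. The swing between these arrays was thus seen under both treatments.

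The 11 measured lipogenic enzymes of fatty acid and glycerolipid metabolism, listed for their link to SREBP1, showed part of this order. Their median deviations were -0.09, 0.35 and -0.07 in wild type vehicle, 0.04, 0.37 and -0.28 in wild type TCDD, 0.06, -0.17 and -0.16 in human AHR vehicle, and -0.05, -0.17 and 0.08 in human AHR TCDD arrays. Wild type replicate 2 was high for both lists under both treatments, and wild type TCDD replicate 3 was the lowest of its group for both. The wild type replicate 2 arrays were also the only ones with high Xist and low Eif2s3y. The part of sex in the swing was not tested. Marker sums of other cells varied between arrays too. Over 4 cholangiocyte markers, of which Krt19 was the main part, the sum read 1371, 533 and 1020 in human AHR vehicle and 1144, 533 and 923 in human AHR TCDD arrays, which is the array order of the enzymes. In wild type it read 803, 930 and 764 with vehicle and 693, 602 and 639 with TCDD, which is not. In human AHR arrays only Krt19 had the order of the enzymes, and Krt7, Epcam and Sox9 did not. With TCDD, Epcam (100.0, 114 and 91.3) and Sox9 (83.8, 107 and 86.9) were highest in replicate 2, where the enzymes were lowest. Krt7 was dim (at most 19.4). The part of these cells in the swing was not tested.

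**Figure D3:**
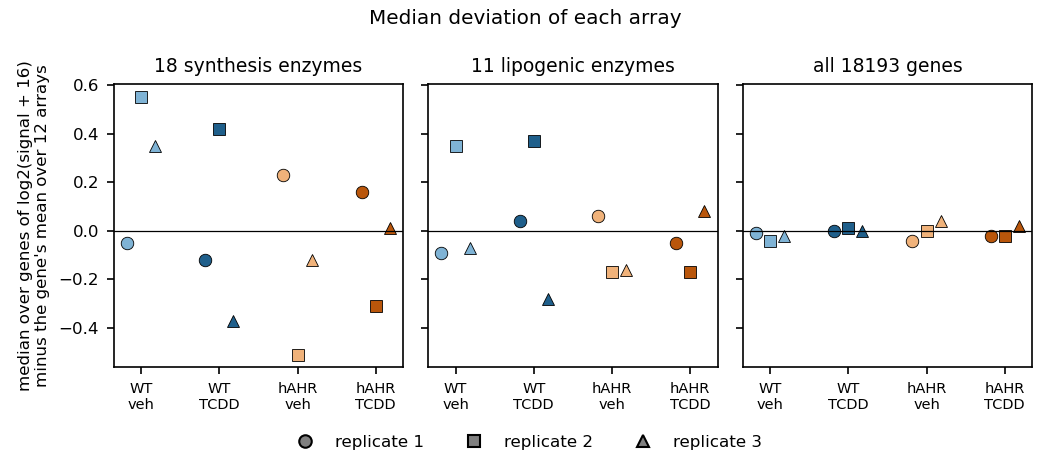
Median over genes of log2(signal + 16) minus each gene's mean over the 12 arrays, by group and replicate, for the 18 synthesis enzymes, the 11 lipogenic enzymes and all 18193 genes (WT, wild type; hAHR, human AHR; veh, vehicle). The synthesis enzymes span -0.51 to 0.55, the lipogenic enzymes -0.28 to 0.37 and all genes -0.04 to 0.04.

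Promoter sequence is shown for the genes at both ends of this spread, since the enzymes varied together and are known to share SREBP2 and its partner NF-Y. RefSeq promoters (mouse build GRCm38.p6, 250 bases before to 50 after a transcription start) were given for 23 of the 28 genes, with 29 promoters in all. Fdps, Fdft1, Sqle, Npc1 and Stard4 had no entry. The 200 bases before the start are printed, 5′ to 3′ on the gene's strand, with each complete match to the sterol element TCACNCCAC, or to the NF-Y box, in capitals. The NF-Y box is CCAAT, and a box on the opposite strand is seen here as ATTGG. The 4 matched genes with the widest within-group spread lie at chr13:8885406-8885605 (Idi1, plus strand), chr13:119690151-119690350 (Hmgcs1, plus strand), chr5:4104698-4104897 (Cyp51, minus strand) and chr5:114444069-114444268 (Mvk, plus strand). Ggps1, with the narrowest, lies at chr13:14063489-14063688 on the minus strand.
Idi1: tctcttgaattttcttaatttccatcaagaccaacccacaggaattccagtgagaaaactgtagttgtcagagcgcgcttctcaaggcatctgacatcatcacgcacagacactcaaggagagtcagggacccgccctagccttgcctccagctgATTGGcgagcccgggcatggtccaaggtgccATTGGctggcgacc
Hmgcs1: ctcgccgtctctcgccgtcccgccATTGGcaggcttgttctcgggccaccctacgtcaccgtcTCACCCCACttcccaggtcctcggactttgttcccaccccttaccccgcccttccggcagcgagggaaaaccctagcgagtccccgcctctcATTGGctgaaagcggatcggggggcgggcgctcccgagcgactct
Cyp51: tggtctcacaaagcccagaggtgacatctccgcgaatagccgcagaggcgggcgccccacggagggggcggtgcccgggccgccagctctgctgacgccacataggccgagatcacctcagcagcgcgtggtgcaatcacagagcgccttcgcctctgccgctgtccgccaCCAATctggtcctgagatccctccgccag
Mvk: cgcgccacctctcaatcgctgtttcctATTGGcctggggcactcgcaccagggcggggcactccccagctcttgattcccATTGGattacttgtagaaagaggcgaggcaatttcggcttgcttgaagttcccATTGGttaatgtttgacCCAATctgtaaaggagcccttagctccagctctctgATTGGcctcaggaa
Ggps1: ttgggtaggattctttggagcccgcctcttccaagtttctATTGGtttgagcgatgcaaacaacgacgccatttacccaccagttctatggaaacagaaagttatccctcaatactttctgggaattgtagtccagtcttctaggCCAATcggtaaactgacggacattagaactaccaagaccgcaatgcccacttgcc
The windows of Idi1, Hmgcs1, Cyp51, Mvk and Ggps1 hold 2, 2, 1, 5 and 2 complete NF-Y boxes, so the gene with the narrowest spread also has them. The sterol element is in the window of Hmgcs1 alone, where its leading base is at position -137 from the start.

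Both strands of the 300 bases were searched in all matched genes. CCAAT was found in 21 of 23 genes (91.3%), against 41.1% of 27025 gene symbols with a promoter in the table. The genes without it were Abca1 and Scap. TCACNCCAC was found in Hmgcs1 alone (4.35% of 23, against 1.44% of all symbols). Its shorter form CACNCCAC, which every match of the longer form also holds, was in Hmgcs1 and Insig1 (8.7% against 7.12%). GCGTG, the core of the AHR element, was in 15 of 23 genes (65.2%), against 35.2% of all symbols. A match is a run of letters and not a shown binding site.

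With TCDD in wild type cells, the enzymes sat on the low side without any gene passing the test. Of the 28 genes, 23 were lower with TCDD and 5 higher, with a median log2 difference of -0.19, beside 8062 of 18193 genes lower and a median of 0.03 over all genes. Of the 18 enzymes, 16 were lower, all but Pmvk (0.18) and Ebp (0.04), with a median of -0.28 and a range from -0.75 to 0.18. By step, the medians were -0.26 for the 5 early mevalonate enzymes, -0.48 for the 2 prenyl enzymes, -0.30 for the 3 from squalene to lanosterol and -0.26 for the 8 from lanosterol to cholesterol. None of the 28 passed an adjusted p of 0.05 in limma, a threshold that 0.0055% of all genes passed.

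At an unadjusted p under 0.05, limma had 1 of the 28 (Npc1), beside 4.18% of all genes, and SAM called 0 genes of any kind. Npc1 was 0.36 higher (SE 0.16, 95% interval 0.02 to 0.70, adjusted p = 0.966), with all 3 TCDD arrays above the vehicle mean. Dhcr7 differed by -0.70 (SE 0.34, -1.43 to 0.03), Msmo1 by -0.46 (SE 0.24, -0.97 to 0.05) and Fdps by -0.75 (SE 0.43, -1.67 to 0.18), each at an adjusted p of 0.966 and each with 3 of 3 TCDD arrays below the vehicle mean. The groups did not overlap for Msmo1 (lower) and Npc1 (higher), 1 of 28 in either direction, beside 2.82% and 6.17% of all genes. The interval of every other gene held 0.

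The size of the wild type shift rested on particular arrays. Without wild type TCDD replicate 3, the lowest of its group for 12 enzymes, the median over the 28 was -0.13 with 20 lower, and Dhcr7 differed by -0.32 and Fdps by -0.45. Without wild type vehicle replicate 2 the median over the 28 was -0.09, and without wild type TCDD replicate 2 it was -0.37. With both replicate 2 arrays of wild type left out it was -0.25, and 15 of 18 enzymes were lower with a median of -0.40. Probe sets of the same gene gave like values for some genes and not for others. The 4 bright probe sets of Hmgcs1 differed by -0.65, -0.65, -0.72 and -0.66, both bright ones of Fdft1 by -0.62 and -0.59, and those of Idi1 by -0.69 and -0.56. Those of Hsd17b7 differed by -0.18, -0.39 and -0.06, those of Insig2 by -0.10, -0.33 and -0.23, and the 2 brightest of Ggps1 by -0.20 and 0.00. The second probe set of Sc5d, with a mean signal of 47.6, went the other way at 0.19.

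With TCDD in human AHR cells the same genes lay close to 0. Of the 28, 10 were lower and 18 higher, with a median of 0.02 (-0.01 over all genes) and a range from -0.26 to 0.24. Of the enzymes, 5 of 18 were lower, with a median of 0.05. None passed the adjusted threshold, which 0.022% of all genes passed, and none reached an unadjusted p under 0.05, beside 2.9% of all genes. SAM called 7 genes here, and 0 of them were among the 28. The groups were separate for 0 of 28 genes in either direction, beside 3.86% of all genes lower and 3.34% higher.

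The members with the smallest p in human AHR cells were not enzymes. Npc1 was 0.21 higher (SE 0.16, -0.13 to 0.55), Npc2 0.12 higher (SE 0.15, -0.20 to 0.44), and Insig1 and Mylip both differed by -0.26 (SE 0.21, -0.72 to 0.20, and SE 0.27, -0.85 to 0.32). The adjusted p was 1 for each of these in limma. The intervals were -0.84 to 0.86 for Hmgcs1 and -0.86 to 0.99 for Fdps. Same-numbered arrays differed by -0.08, -0.06 and 0.16 for Hmgcs1 and by -0.01, -0.02 and 0.24 for Fdps. The replicate block had terms for the array numbers of both genotypes, with 1 shared estimate of the spread. With it, the intervals were narrower, -0.57 to 0.59 for Hmgcs1 and -0.50 to 0.64 for Fdps. That fit had 1 of the 28 genes at an unadjusted p under 0.05 in limma, Insig1 at -0.26 (SE 0.11, -0.50 to -0.02), with an adjusted p of 1. The share of all genes at that threshold was not counted for the fit with the block, so nothing is read from this count. How many of the 28 were lower depended on single arrays and ran from 3 without human AHR TCDD replicate 2 to 20 without human AHR vehicle replicate 2.

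**Figure D4:**
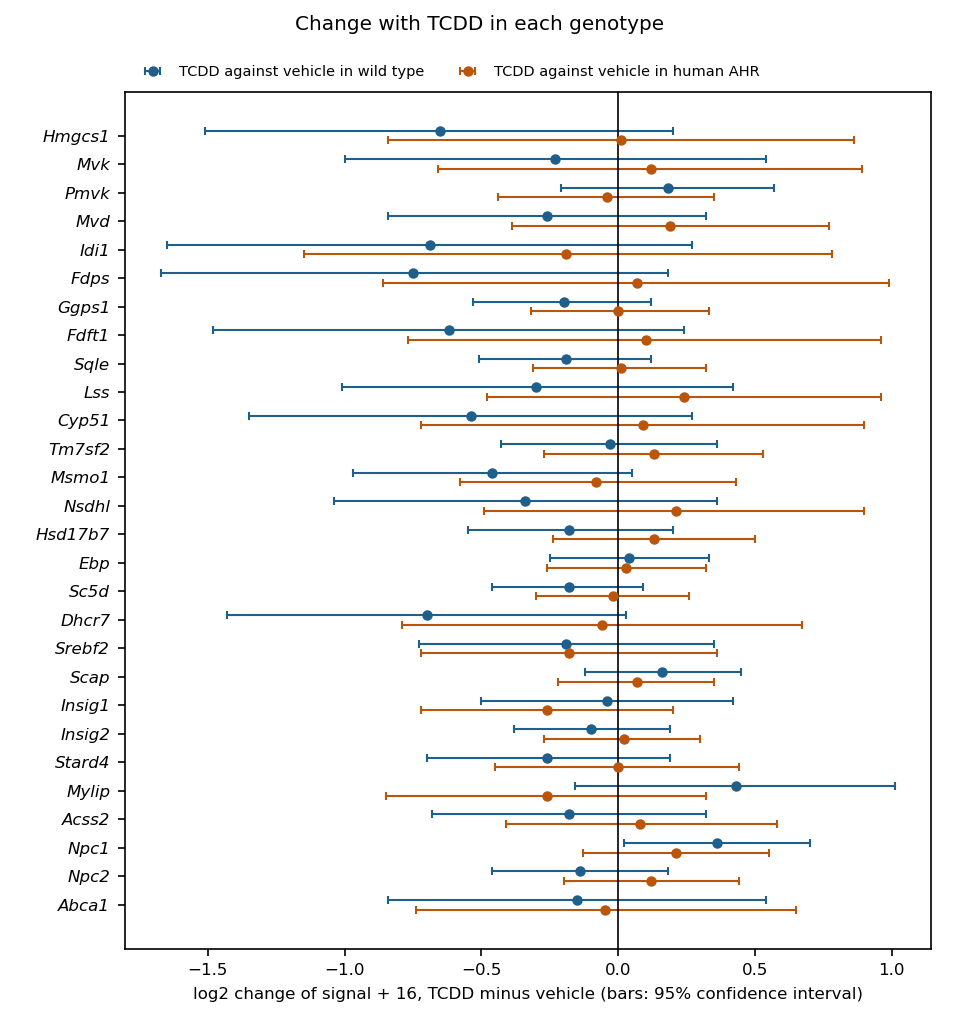
Log2 change of signal + 16, TCDD minus vehicle, for the 28 genes in pathway order in wild type (blue) and human AHR cells (orange), with points for the limma estimate from 3 arrays per group and bars for its 95% confidence interval. All intervals hold 0 except that of Npc1 in wild type cells (0.02 to 0.70).

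The difference of both TCDD effects, human AHR minus wild type, was tested directly. It was positive for 22 of 28 genes, with a median of 0.25 (-0.04 over all genes), and for 16 of 18 enzymes, with a median of 0.42. None of the 28 passed, at the adjusted threshold (0% of all genes) or at an unadjusted p under 0.05 (3.14% of all genes). The smallest p belonged to Mylip at -0.69 (SE 0.38, -1.51 to 0.14), then Fdps at 0.81 (SE 0.61, -0.49 to 2.12), Dhcr7 at 0.64 (SE 0.48, -0.39 to 1.67) and Fdft1 at 0.72 (SE 0.56, -0.50 to 1.94). Each had an adjusted p of 0.998 in limma. An effect that differs between the receptors was therefore not shown for any of these genes, and the wide intervals do not show that the effects were alike. Over the enzymes the median ran from 0.25 without human AHR vehicle replicate 2 to 0.65 without wild type TCDD replicate 2.

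Under vehicle, the enzyme means were lower in human AHR than in wild type cells, again without a call. This comparison uses the same wild type vehicle arrays as the TCDD comparison in wild type, so a high wild type vehicle array enters both in the same direction. The difference, human AHR minus wild type, was negative for 18 of 18 enzymes, with a median of -0.30 and a range from -0.76 to -0.01. Over the 28 genes it was negative for 23, with a median of -0.26, beside 8168 of 18193 genes and 0.03. With each array left out in turn, 16 to 18 of the enzymes were lower, with medians from -0.49 to -0.23. Wild type vehicle had the highest mean of the 4 groups for 15 of the 18 enzymes (83.3%), beside 23.8% of all genes.

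None of the 28 passed the adjusted threshold between the genotypes under vehicle, as 0.0055% of all genes did. At an unadjusted p under 0.05, limma had 2 of 28, Mvd and Hsd17b7, beside 4.23% of all genes. Mvd differed by -0.72 (SE 0.27, -1.31 to -0.14) and Hsd17b7 by -0.38 (SE 0.17, -0.75 to -0.01). Sc5d differed by -0.26 (SE 0.13, -0.53 to 0.02) and Acss2 by -0.45 (SE 0.23, -0.95 to 0.05). The adjusted p was 0.965 for each of the 4, and all 3 human AHR arrays lay below the wild type mean for each. Hsd17b7 and Stard4 were lower and Scap higher without overlap, 2 and 1 of 28, beside 4.4% and 6.22% of all genes. Leaving out human AHR vehicle replicate 2 moved the median over the 28 to -0.11, leaving out wild type vehicle replicate 2 moved it to -0.15, and the difference of Hsd17b7 was -0.18 without both replicate 2 arrays of wild type. Both probe sets of Srebf2 went opposite ways, at 0.20 and -0.17, so no direction is given for the gene that encodes SREBP2.

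Kupffer cell markers were higher in human AHR cells in the same arrays, also without a call. Of 8 such markers, 8 were higher in human AHR than in wild type cells under vehicle, beside 10025 of 18193 genes. Their median log2 difference was 1.27. None passed the adjusted threshold, and 5 of 8 reached an unadjusted p under 0.05 in limma, beside 4.23% of all genes. Their summed signal came mostly from the probe set of Cd68. The summed signal of the other 7 read 99.8, 98.4 and 169 in wild type vehicle and 126, 575 and 870 in human AHR vehicle arrays. C1qa read 0.900, 1.40 and 25.8 in wild type vehicle and 4.20, 183 and 312 in human AHR vehicle arrays. The highest signals of the others in any array were 64.9 for Clec4f, 81.3 for Vsig4, 98.9 for Csf1r, 116 for Adgre1, 122 for Marco and 126 for Cd5l. Human AHR vehicle replicates 2 and 3 were thus high for these markers, and they were also lower than replicate 1 in the median of the enzymes. Including Cd68, the sum of the 8 read 1922, 3413 and 2208 in wild type and 2066, 3373 and 4321 in human AHR vehicle arrays. The Actb 3′ to 5′ ratio was also higher in human AHR vehicle replicates 2 and 3 (1.565 and 1.525) than in every wild type vehicle array (at most 1.427). The part of Kupffer cells and of RNA quality in the enzyme differences was not tested.

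Under TCDD the genotypes were close. Of the 28 genes, 14 were lower in human AHR cells, with a median difference of 0.01, and of the 18 enzymes 8 were lower, with a median of 0.04. None passed at the adjusted threshold (0% of all genes) or at an unadjusted p under 0.05 (4.11% of all genes), and 0 of 28 had groups without overlap, beside 4.86% of all genes lower and 3.23% higher. Pmvk differed by -0.26 (SE 0.18, -0.66 to 0.13), Ggps1 by 0.19 (SE 0.15, -0.13 to 0.52), Dhcr7 by 0.43 (SE 0.34, -0.30 to 1.17) and Ebp by -0.16 (SE 0.13, -0.45 to 0.13), each with an adjusted p of 1 in limma. Of the Kupffer cell markers, 7 of 8 had higher means in human AHR cells, beside 8658 of 18193 genes, with a median difference of 1.01. Their groups were separate for 6 of 8, all higher, beside 3.23% of all genes, and none passed the adjusted threshold. Their 7-gene sum without Cd68 read 93.9, 135 and 112 in wild type TCDD and 147, 491 and 841 in human AHR TCDD arrays. Without wild type TCDD replicate 3, Dhcr7 differed by 0.05, 20 of the 28 genes were lower and the median over the enzymes was -0.17.

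Of 36 other genes of sterol sensing, of the mevalonate side branches, of LXR signalling and of SREBP1-driven lipid synthesis, 33 were measured, and 0 of 33 passed the adjusted threshold in any of the 5 comparisons. For TCDD in wild type cells their median was -0.03, for TCDD in human AHR cells 0.00, and for the genotypes under vehicle -0.09. Medians over the 11 lipogenic enzymes were 0.00, 0.02 and -0.09 in the same comparisons, beside -0.28, 0.05 and -0.30 for the cholesterol enzymes. The farnesyltransferase subunit gene Fntb, whose enzyme draws on the product of Fdps, alone among the 33 had an unadjusted p under 0.05 in limma. That was 1 of 33 for TCDD in human AHR cells and for the genotypes under vehicle, beside 2.9% and 4.23% of all genes. The count is thus near the share of all genes. Fntb read 85.6, 95.8 and 74.3 in human AHR vehicle, 55.0, 39.8 and 70.9 in human AHR TCDD, and 40.3 to 63.3 in wild type arrays. Human AHR vehicle was thus above every other array. Its log2 difference was -0.52 with TCDD in human AHR cells (SE 0.22, limma adjusted p = 1) and 0.53 between the genotypes under vehicle (SE 0.22, limma adjusted p = 0.965). Erlin2, which takes part in the sterol-driven breakdown of pathway proteins, differed by -0.36 with TCDD in wild type cells (SE 0.18, limma adjusted p = 0.966). Abcg5 and Abcg8, the paired sterol exporters of the bile canaliculus, differed by 0.77 (SE 0.49) and 0.45 (SE 0.25) with TCDD in human AHR cells, each with a limma adjusted p of 1. Both were dim in human AHR vehicle arrays, at 26.8 to 41.4 and 23.1 to 43.9. Abcg5 ran from 18.4 to 134 within wild type TCDD arrays.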

How the data were processed

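The deposited values are linear intensities, which the authors normalised with PLIER in Affymetrix Expression Console 1.1, per the submitters' processing notes. Trimming 2% at each end left a mean of 150 (9 arrays) or 500 (all wild type TCDD arrays), which is global scaling and not a result of PLIER, so every array was rescaled to 150. Controls (64 of 45101 probe sets) and probe sets without 1 symbol were left out. The brightest probe set stood for a gene. limma 3.58.1 in R 4.3.3 fitted log2(signal + 16) with a mean per group over 12 arrays and an intensity trend, checked on simulated data. Two-sided p-values were adjusted by Benjamini-Hochberg over all 18193 genes (threshold 0.05). SAM, at a false discovery rate of 5%, was an alternative.

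Members, lists, tests and alternatives were chosen with earlier results of these data known. Full statistics are given for the 4 members with the smallest p in a comparison, and at most 4 other pathway genes are named for each. Tiparp and Cyp1a1 check the treatment. Genes named for their array order or for groups without overlap were chosen after their values were seen. Same-numbered human AHR arrays deviated together (r of 0.24, 0.27 and 0.19 across genes, other numbers at most -0.04) and were taken as paired, from the values and not the labels; wild type numbers were not. Scan and culture dates were not given in the labels, so genotype and day cannot be told apart. Only the wild type TCDD arrays were deposited at a mean of 500. Any other difference in how they were processed cannot be told apart from TCDD in wild type cells. This limit holds for each comparison that uses these arrays.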

Additional observations from a re-analysis of the deposited data

How the results depend on the processing

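The results were recomputed under 26 other settings: offsets of 1 and 50, quantile normalization, a shared median, a trimmed mean of 500, the dimmest 40% left out, no intensity trend, array weights, only the arrays compared, the mean of probe sets, every probe set, the replicate block, SAM, both wild type replicate 2 arrays left out, and each array left out in turn. The count of members that passed was 0 in all 5 comparisons under every setting run. The smallest adjusted p of any member was 0.454 for TCDD in wild type, 1 for TCDD in human AHR, 0.784 for the difference, 0.362 for the genotypes under vehicle and 0.667 under TCDD. Of 856 recomputed values 849 counted as kept. A gene's difference had to keep its direction and side of the threshold. A median over the members could move by 0.20, the spread between arrays, and a count by 1.5 times. The medians themselves ran from -0.26 to 0.25, so one that turned sign could still count as kept. For TCDD in human AHR the median ran from -0.08 to 0.13, and for the genotypes under TCDD from -0.11 to 0.13. The 7 values not kept were counts of members lower that lie near an even split. For TCDD in human AHR (10 of 28 lower) the count ran from 3 to 20 over the arrays left out in turn. For the genotypes under TCDD (14 of 28) it was 9 with array weights, 7 without both wild type replicate 2 arrays and from 7 to 20 over the arrays left out. The replicate block gave medians over the members of -0.19, 0.02 and 0.25 for TCDD in wild type, TCDD in human AHR and the difference, and changed no call. In wild type, same-numbered arrays correlated with r of 0.25, 0.51 and 0.05, and differently numbered ones with -0.46 to 0.28. The numbers were thus not read as a pairing there, although the block held terms for them. A shared median moved the median over the members to -0.31 for TCDD in wild type and to 0.39 for the difference.

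With 3 arrays per group and a median within-group SD of 0.42 for the enzymes, intervals of the variable ones, such as -1.67 to 0.18 for Fdps with TCDD in wild type, leave differences of about that width undecided. Mylip, Mvd, Abcg5 and Abcg8 were dim.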
